A study of Xenopus laevis with 12 samples.

Results

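RNA of whole heads was compared between tadpoles of the African clawed frog, Xenopus laevis, at NF stage 47, a feeding stage of the Nieuwkoop and Faber series, after an early exposure to thioridazine and without it. The libraries were chosen by their labels alone, 3 of thioridazine heads and 3 of control heads at stage 47, which makes 6 of the 12 libraries of the series. The thioridazine group came from embryos kept in 90 µM of the drug from NF stage 14 to stage 26 and consisted of tadpoles whose faces were malformed. The control group was labelled wild type and was kept at the same temperatures, 14 °C with 18 °C during the exposure window, and the control labels name no solvent. Whole heads were used, so every tissue of the head shared a library. The other 6 libraries are the same 2 groups at stage 45. They enter the estimate of the spread and 1 comparison at the end. The labels call the replicates biological but do not say how many heads or which clutch each holds, so the p-values reflect how these libraries vary, which may be technical in part. Thioridazine heads picked for a malformed face leave treated tadpoles with a normal face unmeasured.

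Thioridazine is a phenothiazine antipsychotic that blocks dopamine receptors and several other receptors of the brain. The cells that form most of the face and all of the body's melanophores arise from the neural crest, which leaves the neural folds during the stages of the exposure. Melanin is also made in the retinal pigment epithelium, the sheet behind the photoreceptors that recycles their chromophore. In a whole head, both kinds of pigment cell and the photoreceptors in front of them are read together.

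The 3 thioridazine libraries held 14395709, 12261034 and 12327990 counts, and the 3 control libraries 12212058, 16933777 and 16917567. Levels are given as CPM, from counts and TMM-adjusted library sizes, in the order of replicates 1, 2 and 3. Markers of neurons, retina, lens, cartilage, head muscle, pigment cells and epidermis were present in all 6 libraries. The first principal component, with 33.6% of the variance, had thioridazine replicate 2 at one end and control replicate 3 at the other and did not separate the groups. Control replicate 3 held 215 CPM of 5 pancreas markers, against 0.166 to 0.945 CPM in the other 5 libraries. Thioridazine replicate 2 held little liver RNA, with the fibrinogen gene fga.S at 0.504 CPM, against 78.0 and 73.4 CPM in thioridazine replicates 1 and 3 and 100.0, 185 and 215 CPM in controls. Control replicate 2 was low in photoreceptor RNA, at 4666 CPM summed over the rod and cone list, against 7188 and 7230 CPM in the other controls. In such bulk samples, more cells of a type and more RNA per cell cannot be told apart.

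The changes that passed were mostly increases, and genes of pigment cells, photoreceptors and epithelia and a run of neighbouring genes were among them. A pair of tests was used. The first, edgeR's quasi-likelihood test with no block, called 20 of 27050 genes raised (0.0739%) and 0 lowered (0%) at a Benjamini-Hochberg adjusted p under 0.05. At an unadjusted p under 0.05 it found 953 genes, 524 higher and 429 lower, and DESeq2 called 68, of which 4 were lower. The second, called the paired test here, adds the replicate number as a block within each stage. It called 138 genes raised (0.51%) and 33 lowered (0.122%), and the 20 were among the raised. The same-numbered thioridazine and control libraries deviated from their group means in the same direction, with correlations across genes of 0.18, 0.225 and 0.471. Differently numbered ones gave -0.322 to 0.0951. As the deviations sum to 0 within each group, the gap between these values is in part built in. Over all genes the median log2 fold change was 0.004, with 51.0% above 0 and a median standard error (SE) of 0.181.

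**Figure D1:**
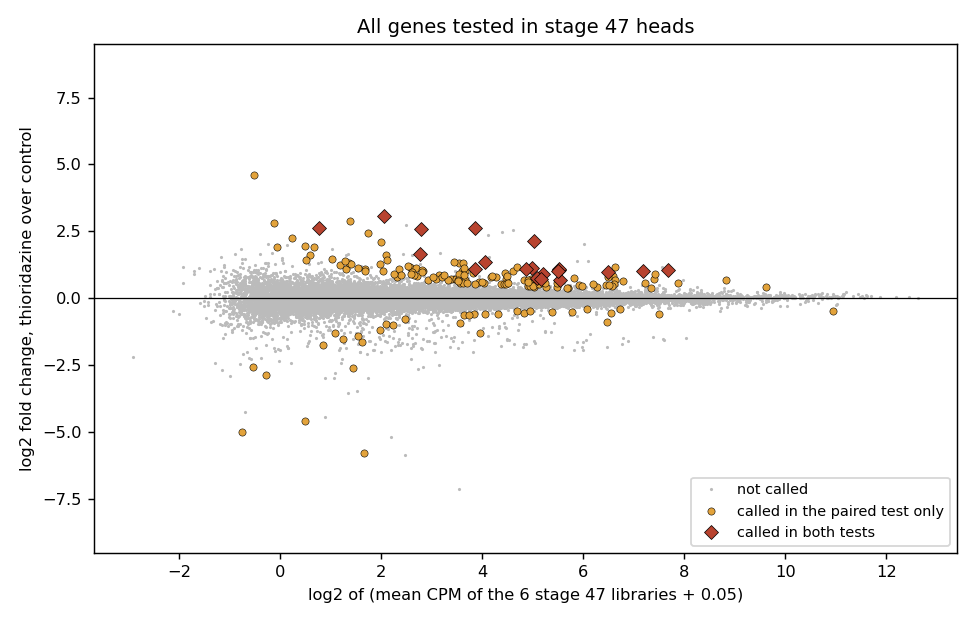
Log2 fold change of thioridazine over control heads at stage 47 against mean level for the 27050 genes tested. Diamonds are the 20 genes called by both tests and circles the genes called in the paired test only. All diamonds lie above 0, and most circles do.

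Of the 20 genes, 11 have a gene name and 15 were at least 2-fold higher. In each of the 20 the lowest thioridazine value lay above the highest control value, which held for 4.78% of all genes tested (4.82% had the groups apart in the other direction). Without thioridazine replicates 1, 2 and 3, 11, 6 and 10 of the 20 stayed called. The totals called there were 12, 6 and 11, with 1 lowered gene among the 12. Without control replicates 1, 2 and 3 the test called 0, 2 and 1 genes, all of them among the 20. In the paired test with 1 pair of libraries left out, 18, 17 and 18 of the 20 were called without pairs 1, 2 and 3. Of the 138 genes raised in the paired test, 38 were called whichever pair was left out, 22 of them named. Among the 22 were pmel.L, pmel.S, tyrp1.L, dct.L, ednrb2.S, mlana.L, slc45a2.L, tspan36.L, grk7.L, gnat2.S, guca1a.S, opnpl.L, elf3.L, elf3.S, tmprss2.2.L, tmprss2.3.L, slc44a4.S, sftpa1.L, gatd3alc.2.L, prl.2.S and eda2r.L. Of the 33 lowered, 2 were called whichever pair was left out, of which tff3.2.S has a name. Every other named gene given with a paired call lost it without at least 1 of the pairs.

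**Figure D2:**
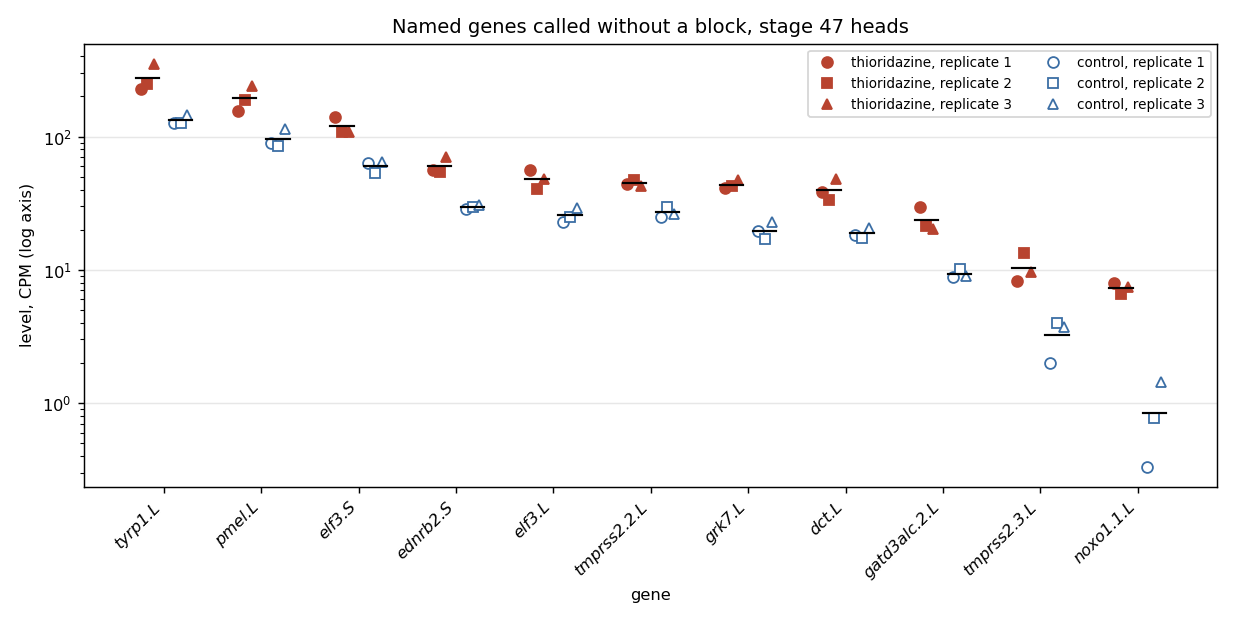
Levels in CPM, on a log axis, of the 11 named genes called without a block, with each of the 3 thioridazine libraries left of the 3 control libraries. Horizontal bars are group means. In every gene the thioridazine points lie above all control points.

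Genes of pigment cells rose in thioridazine heads, by about the same factor in several of them. The enzyme tyrp1.L (gene 380184), which acts late in melanin synthesis, had 227, 247 and 350 CPM in thioridazine heads, against 126, 126 and 146 CPM in controls. Its log2 fold change was 1.05 (SE 0.16, edgeR adjusted p = 0.0199). The enzyme dct.L (gene 100381161), one step earlier in the pathway, had 38.1, 33.3 and 48.0 CPM in thioridazine heads and 18.3, 17.2 and 20.7 CPM in controls (2.13-fold, adjusted p = 0.0149). Both groups were tight in dct.L relative to the gap between them. The gene pmel.L (gene 734169), whose protein forms the fibrils on which melanin is laid down, had 156, 187 and 238 CPM in thioridazine heads and 89.0, 84.5 and 114 CPM in controls (2.02-fold, adjusted p = 0.0242). Its homeolog (the copy from the species' genome duplication, marked .L or .S) pmel.S had 104, 124 and 185 CPM in thioridazine heads and 53.6, 48.9 and 80.5 CPM in controls, and passed in the paired test alone (adjusted p = 0.127, paired 2.8e-06). Replicate 3 was the highest of its group for both pmel copies and for tyrp1.L, in thioridazine and control heads alike. The endothelin receptor gene ednrb2.S (gene 379394), a marker of the pigment lineage in birds, fish and frogs, had 56.2, 54.5 and 70.5 CPM in thioridazine heads and 28.6, 29.5 and 30.9 CPM in controls (2.03-fold, adjusted p = 0.00865). Its homeolog ednrb2.L had 16.7, 14.9 and 16.5 CPM in thioridazine heads and 9.31, 12.5 and 12.1 CPM in controls, and passed neither test (adjusted p = 1.0, paired 0.241).

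More pigment genes passed in the paired test. The melanosome protein gene mlana.L had 13.3, 17.2 and 20.9 CPM in thioridazine heads and 6.07, 7.20 and 9.76 CPM in controls (2.21-fold, paired edgeR adjusted p = 0.000116). The melanosome transporter slc45a2.L, which is needed for full melanin content, was 1.8-fold higher (paired 0.000105). The tetraspanin gene tspan36.L, expressed in pigment cells of zebrafish, had 9.79, 13.8 and 23.1 CPM in thioridazine heads and 3.82, 6.32 and 7.62 CPM in controls (2.59-fold, paired 1.57e-05). Its spread within each group was wide, with replicate 3 highest, and the unblocked adjusted p was 0.558. Of 35 tested members of the pigment cell list, 26 lay above 0, with a median log2 fold change of 0.30 against 0.004 over all genes. The test without a block called 4 of them raised, against 0.0739% of all genes, and the paired test 7, against 0.51%, and none was lowered. All 7 were called with any 1 pair left out. Summed over the list, thioridazine heads had 1049, 1080 and 1342 CPM and controls 699.9, 715.4 and 781.0 CPM, and the groups did not overlap. The 7 called genes are part of this sum, so it is not separate from their single results. The list was chosen with earlier results of these data known, so its counts of calls are a description and not a test.

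Photoreceptor genes rose too, several of them specific to cones. The cone opsin kinase grk7.L (gene 100192358), which shuts off the activated opsin, had 41.0, 42.4 and 47.0 CPM in thioridazine heads and 19.4, 16.9 and 22.7 CPM in controls (2.21-fold, edgeR adjusted p = 0.00694). It had the smallest adjusted p of all genes, and its copy grk7.S, at 11.6, 13.9 and 14.7 CPM in thioridazine heads and 7.81, 6.26 and 10.2 CPM in controls, passed in the paired test (paired 0.0119). Control replicate 2, the library low in photoreceptor RNA, was the lowest for both copies, and the thioridazine values also lay above the other 2 controls. The alpha subunit of cone transducin, gnat2.S, had 107, 114 and 122 CPM in thioridazine heads and 72.6, 49.3 and 77.9 CPM in controls (1.72-fold, adjusted p = 0.132, paired 0.000421). The long-wave cone opsin opn1lw.L had 565, 573 and 539 CPM in thioridazine heads and 416, 241 and 390 CPM in controls (1.6-fold, paired 0.0399, lost with each of the pairs left out). The rod opsin gene rho.L had 1160, 1420 and 1320 CPM in thioridazine heads and 1220, 791 and 1490 CPM in controls, with the groups overlapping.

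In the paired test 13 of the 69 tested rod and cone genes were raised, against 0.51% of all genes, and 0 lowered. Of the 69, 56 lay above 0, against 51.0% of all genes (median 0.21, and 0.13 without control replicate 2). Besides those above, the 13 included guca1a.S and guca1c.S, activators of the photoreceptor guanylate cyclase, both copies of the cyclase gene gucy2d, both copies of the cone phosphodiesterase inhibitor pde6h, phosducin (pdc.L) and the ribbon synapse gene cplx4.S. The median over the list was 0.10, 0.70 and 0.0018 in pairs 1, 2 and 3, so pair 2, with the low control, was far above the others. The list's summed level was 7225, 7727 and 7293 CPM in thioridazine heads, against 7188, 4666 and 7230 CPM in controls. Without pair 2, 3 of the 13 were called, namely grk7.L (paired edgeR adjusted p = 2.74e-05), gnat2.S (0.00536) and guca1a.S (0.00745). The lost calls included opn1lw.L (0.09), grk7.S (0.191), both copies of pde6h (0.28 for pde6h.L and 0.0681 for pde6h.S) and both of gucy2d (0.0951 for gucy2d.L and 0.396 for gucy2d.S). Without pair 1, 8 of the 13 were called, and without pair 3, 7.

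The retinal pigment epithelium list holds tyrp1, pmel and dct too. Its median with all members was 0.732, 0.225 and 0.115 in pairs 1, 2 and 3, so pair 1 was the highest. Without tyrp1, pmel and dct, 20 of its 22 tested genes lay above 0 (median 0.32), against 51.0% of all genes. Their sum was 1058, 918.4 and 832.8 CPM in thioridazine heads and 718.9, 776.4 and 697.8 CPM in controls, with no overlap. In the paired test 2 of the 22 were raised, against 0.51% of all genes. These were rgr.L, an opsin-like protein that takes part in chromophore recycling, and rlbp1.L, which carries retinaldehyde in the epithelium. The level of rgr.L was 45.8, 41.8 and 36.2 CPM in thioridazine heads and 25.9, 31.8 and 26.8 CPM in controls (1.46-fold, paired edgeR adjusted p = 0.0089, lost without pair 1). Its copy rgr.S had 75.4, 59.8 and 32.5 CPM in thioridazine heads and 33.1, 52.6 and 30.0 CPM in controls. There the groups overlapped (paired 0.764). The level of rlbp1.L was 102, 85.2 and 73.2 CPM in thioridazine heads and 59.2, 58.7 and 60.8 CPM in controls (paired 0.0119, lost without pair 1 or pair 2). The opsin-named gene opnpl.L had 134, 112 and 118 CPM in thioridazine heads and 94.1, 54.1 and 78.6 CPM in controls (1.61-fold, adjusted p = 1.0, paired 0.00121).

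Regulators of retinal and neural progenitors were raised in the paired test in 3 of 112 tested genes, against 0.51% of all genes (86 above 0, median 0.15, and 0.082 without control replicate 2). The proneural factor neurod4.S had 11.5, 9.32 and 10.9 CPM in thioridazine heads and 6.15, 5.73 and 7.26 CPM in controls (1.66-fold, paired edgeR adjusted p = 0.0136, lost with each of the pairs left out). Its copy neurod4.L was 1.49-fold higher (paired 0.0129, lost without pair 1 or pair 2). The gene atoh7.S, needed for retinal ganglion cells in fish and mice, had 6.01, 4.87 and 7.37 CPM in thioridazine heads and 3.74, 2.66 and 3.45 CPM in controls (paired 0.0264, lost with each of the pairs left out). Lens genes lay above 0 in 25 of 31 (median 0.27, and 0.16 without control replicate 2), with 0 called by either test. Their sum was 1594, 1642 and 1020 CPM in thioridazine heads and 1362, 901.7 and 1077 CPM in controls, so the groups overlapped.

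**Figure D3:**
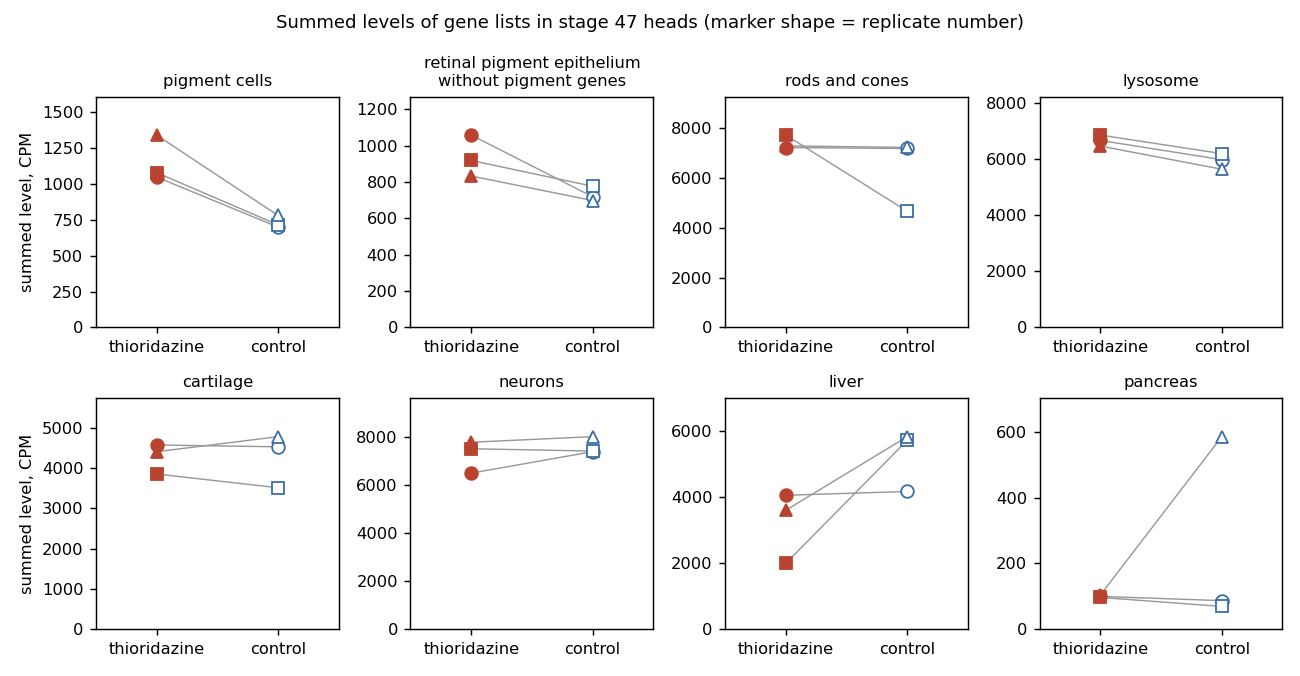
Summed CPM of 8 gene lists in the 3 thioridazine and 3 control libraries at stage 47, with lines joining libraries of the same replicate number. The groups are apart for pigment cells, for retinal pigment epithelium without its pigment genes, for lysosome and for liver. For rods and cones 1 control is low, and for pancreas 1 control is high.

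Among epithelial genes, both copies of elf3, a transcription factor of the ETS family made in epithelia, rose about as much as each other. For elf3.S (gene 108709471) thioridazine heads had 141, 109 and 109 CPM and controls 63.1, 53.5 and 63.9 CPM (1.99-fold, edgeR adjusted p = 0.00865). For elf3.L (gene 108708141) thioridazine heads had 55.8, 40.7 and 48.1 CPM and controls 22.9, 24.9 and 29.2 CPM (1.87-fold, adjusted p = 0.0329). Replicate 1 was the highest thioridazine library in both copies. The related epithelial factor ehf.S had 2.23, 2.60 and 1.78 CPM in thioridazine heads and 0.499, 1.12 and 0.476 CPM in controls (3.07-fold, paired 0.0171, lost with each of the pairs left out). These 3 were the only genes of 60 tested on the epithelial list that passed in the paired test, which raised 0.51% of all genes. The list as a whole was level, with 35 above 0, a median of 0.014 and sums of 5291, 5778 and 5338 CPM in thioridazine heads and 5457, 5813 and 5118 CPM in controls.

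A pair of neighbouring genes for transmembrane serine proteases rose. The gene tmprss2.3.L (gene 397830) had 8.17, 13.3 and 9.58 CPM in thioridazine heads and 2.00, 3.96 and 3.75 CPM in controls (3.15-fold, edgeR adjusted p = 0.0286). Beside it, tmprss2.2.L (gene 495248) had 43.9, 47.4 and 42.6 CPM in thioridazine heads and 25.0, 29.8 and 26.2 CPM in controls (1.65-fold, adjusted p = 0.0418). As members of a family of similar copies they may share reads. The gene noxo1.1.L (gene 108701677) encodes an organizer that activates the NADPH oxidase NOX1, a source of superoxide in mammalian epithelia. It had 7.97, 6.63 and 7.46 CPM in thioridazine heads and 0.333, 0.768 and 1.43 CPM in controls, which is 8.35-fold (log2 fold change 3.06, SE 0.47, edgeR adjusted p = 0.0242). With any 1 of the stage 47 libraries left out it was not called (adjusted p 0.0565 to 0.221), and its log2 fold change was 3.66 without control replicate 3. The calls of elf3.L (edgeR adjusted p 0.0602 to 0.235) and tmprss2.2.L (0.0959 to 0.286) were lost in the same way. Those of tmprss2.3.L, tyrp1.L and pmel.L each stayed with only 1 of these libraries left out. With homeologs summed noxo1.1.L was not called either (adjusted p = 0.0771). Its paired adjusted p was 0.031, with 0.266 without pair 2 and 0.0568 without pair 3. Its copy noxo1.1.S was low, at 1.15, 0.756 and 0.593 CPM in thioridazine heads and 0.166, 0.118 and 0.595 CPM in controls, and passed neither test (paired 0.673). Of 45 tested genes for NADPH oxidases and oxidant defence, 31 lay above 0 (median 0.061), with 0 called by either test.

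Other genes raised in the paired test belong to none of the lists and are given here singly, several of them named after their values were seen. On the lists nearest to them, interferon, complement and antigen presentation (58 tested) and myeloid cells (64 tested), the paired test called 0. The collectin gene sftpa1.L, of a family that binds microbial sugars, had 136, 101 and 133 CPM in thioridazine heads and 67.8, 57.2 and 84.9 CPM in controls (1.76-fold, paired edgeR adjusted p = 3.67e-05). The ribonuclease gene zc3h12a, which degrades mRNAs of inflammatory cytokines, passed in both copies. For zc3h12a.L thioridazine heads had 32.6, 42.9 and 32.0 CPM and controls 10.4, 20.4 and 16.7 CPM (paired 0.00672). For zc3h12a.S they had 18.2, 15.9 and 16.8 CPM and controls 6.07, 9.86 and 8.87 CPM (paired 0.00388). The choline transporter family gene slc44a4.S had 14.9, 19.6 and 14.2 CPM in thioridazine heads and 6.23, 8.92 and 8.45 CPM in controls (2.05-fold, paired 0.00154). The epithelial cytokine il17c.L had 1.35, 1.18 and 1.78 CPM in thioridazine heads and 0.416, 0.354 and 0.357 CPM in controls (3.78-fold, paired 0.037). The mucin gene muc22.S, the interleukin receptor gene il13ra2.L, the antiviral gene ifitm3.L, the ficolin fcn1.L, the sterol hydroxylase ch25h.L and the lipopolysaccharide-degrading enzyme aoah.L were raised as well, by 1.51 to 2.05-fold. Of these 6 and il17c.L, only muc22.S and ifitm3.L stayed called with at least 1 of the pairs left out.

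The receptor gene eda2r.L had 9.45, 11.2 and 7.71 CPM in thioridazine heads and 2.91, 6.56 and 4.11 CPM in controls (2.06-fold, paired edgeR adjusted p = 0.00413). The apoptosis inhibitor bcl2l10.S was 1.51-fold higher (paired 0.00408, lost without pair 1 or pair 2). Heat shock and unfolded protein genes were mixed. There, 28 of 79 lay above 0, the collagen chaperone serpinh1.L was raised (paired 0.0351) and the secreted stress factor manf.S was lowered (paired 0.0171), both with overlapping groups. Over all genes the paired test raised 0.51% and lowered 0.122%.

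Hormone genes that passed did so in the paired test. The prolactin gene prl.2.S had 8.51, 7.89 and 8.05 CPM in thioridazine heads and 2.33, 3.66 and 4.64 CPM in controls (2.27-fold, edgeR adjusted p = 0.127, paired 0.00369). Dopamine holds back prolactin release from the pituitary in vertebrates, and whether that bears on prl.2.S here was not tested. This gene is not on the pituitary list, where no symbol matched its name. The prolactin and cytokine feedback gene cish.S had 14.0, 12.7 and 21.8 CPM in thioridazine heads and 10.4, 6.79 and 9.22 CPM in controls (1.84-fold, paired 0.017). The repressor gene bcl6.L was lower, at 12.2, 9.66 and 9.58 CPM in thioridazine heads and 15.3, 14.9 and 18.5 CPM in controls (log2 fold change -0.63, paired 0.0284). The leptin gene lep.L, for a hormone of energy balance, had 1.15, 1.51 and 1.1 CPM in thioridazine heads and 0, 0.118 and 0 CPM in controls (paired 0.0176), and was not called with any pair left out. Of 48 tested genes of pituitary hormones and prolactin signalling, 27 lay above 0 (median 0.099). In the paired test cish.S and lep.L were the 2 raised, against 0.51% of all genes, and bcl6.L was the 1 lowered, against 0.122%, and none of the 3 was called without pair 2 or without pair 3. Of 51 genes for dopamine synthesis and the receptors that phenothiazines bind, 20 lay above 0 (median -0.034) and 0 were called. The smallest p among them belonged to the dopamine receptor drd4.S, at 1.82, 2.27 and 1.27 CPM in thioridazine heads and 0.914, 0.886 and 1.19 CPM in controls (paired 0.403).

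The deiodinase dio3.L, which inactivates thyroid hormone, had 27.1, 21.9 and 27.5 CPM in thioridazine heads and 20.9, 13.3 and 19.3 CPM in controls (1.43-fold, paired edgeR adjusted p = 0.0272), the 1 called gene of 35 on the thyroid hormone list. The retinoic acid hydroxylase cyp26a1.S, which clears retinoic acid, had 9.72, 6.89 and 7.29 CPM in thioridazine heads and 6.07, 2.89 and 4.4 CPM in controls (1.81-fold, paired 0.0147). It was 1 of the 2 genes raised of 50 on the retinoic acid list, whose median was 0.034. Over all genes the paired test raised 0.51%.

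A run of neighbouring genes stood out on 1 chromosome. It was chosen after its values were seen, starting from gatd3alc.2.L (gene 108698348). That gene, which the name table lists as a transcribed pseudogene, had 29.7, 21.2 and 20.2 CPM in thioridazine heads and 8.81, 10.2 and 9.05 CPM in controls (2.53-fold, edgeR adjusted p = 0.0149). In the order of genes in the name table it lies between atp7a.L and zbtb33.L, in a run of 22 genes that carry family names such as phyhdl, gatd3al, satp and acod1l. Of these 16 were in the count files and 14 were tested. All 14 lay above 0, with log2 fold changes of 0.87 to 2.89 and a median of 1.8, where 0.0739% of all genes were raised without a block and 4.78% had their groups apart in that direction. In 13 the groups did not overlap. Only gatd3alc.2.L passed without a block, and 4 passed in the paired test, which raised 0.51% of all genes. As the run was chosen by its values, its counts cannot be compared with the shares over all genes.

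The most abundant gene of the run, phyhdlc.1.L, had 115, 102 and 96.5 CPM in thioridazine heads and 9.56, 23.7 and 41.7 CPM in controls (log2 fold change 2.05, SE 0.52, edgeR adjusted p = 0.623, paired 0.376). The controls differed among themselves by more than the thioridazine heads did. The gene phyhdla.1.L had 45.9, 54.7 and 24.8 CPM in thioridazine heads and 1.16, 9.33 and 10.2 CPM in controls (adjusted p = 0.313). Its neighbour phyhdla.2.L had 4.59, 6.89 and 2.03 CPM in thioridazine heads and 0.249, 0.591 and 0.893 CPM in controls (paired 0.00846). The gene acod1lb.L, related to the enzyme that makes itaconate in mammals, had 2.03, 1.93 and 1.1 CPM in thioridazine heads and 0, 0.591 and 0.595 CPM in controls. Summed over the tested genes of the run, thioridazine heads had 306.6, 264.1 and 203.4 CPM and controls 31.5, 67.09 and 89.75 CPM. Control replicate 1 was the lowest, and thioridazine replicate 1 the highest. On the flanks the copper transporter atp7a.L had a log2 fold change of 0.0014, cox7b.L -0.053 and zbtb33.L -0.046. At stage 45 the same run summed to 147.8, 93.63 and 175.2 CPM in thioridazine heads and 114.8, 120.8 and 172.9 CPM in controls. There its log2 fold changes were -0.84 to 0.61, with 6 of 14 below 0. The highest was that of gatd3alc.2.L, which was raised at stage 45 in the paired test (paired edgeR adjusted p = 0.0331). Its difference between the stages did not pass (paired 0.32). In the run, only LOC108698349 had a difference between the stages that passed in the paired test (0.0173), and none had without a block. Genes of the run that share a family name may be similar copies, so the counts of any 1 of them are uncertain. The sum depends less on how reads were split between such copies, and sharing of reads was not tested.

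**Figure D4:**
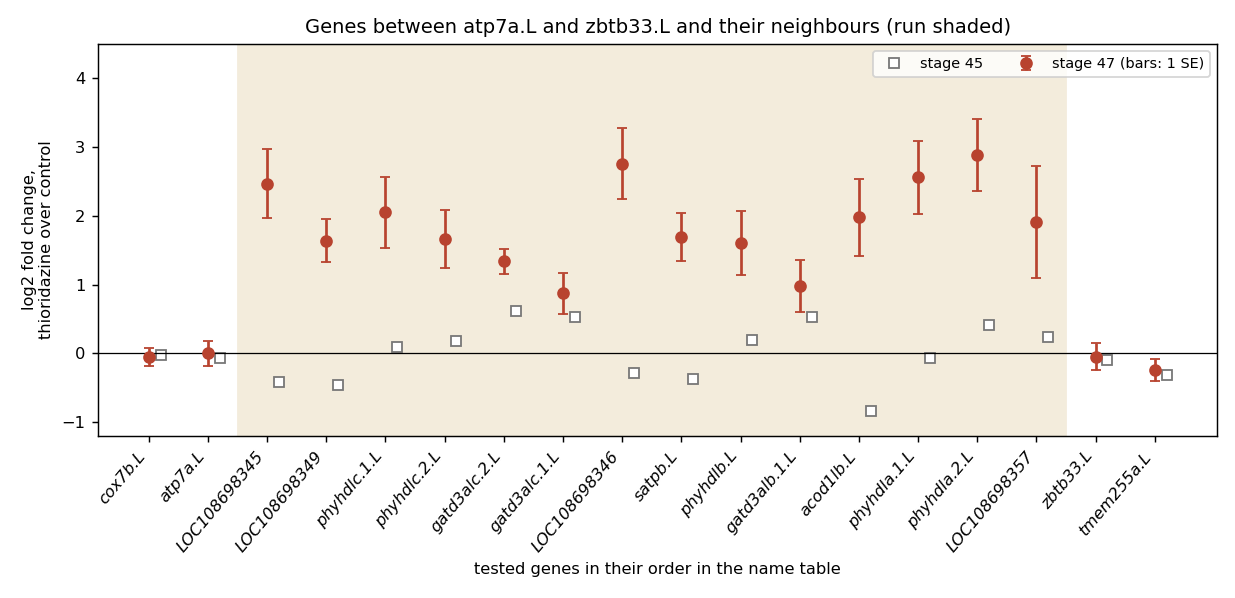
Log2 fold change of thioridazine over control heads for the tested genes between atp7a.L and zbtb33.L (shaded) and those beside them, in gene order. Circles with bars of 1 SE are stage 47 and open squares stage 45. The 14 genes of the run lie between 0.87 and 2.89 at stage 47, and the flanking genes lie near 0.

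Of the 20 called genes, 9 have a database number for a name. The gene LOC108713473 had 12.9, 40.0 and 21.4 CPM in thioridazine heads and 2.66, 3.96 and 5.12 CPM in controls (6.22-fold, edgeR adjusted p = 0.0149). Replicate 2 was the highest thioridazine library there. The gene LOC108717557, a long noncoding RNA in the name table, had 69.0, 59.5 and 59.3 CPM in thioridazine heads and 33.7, 24.8 and 29.4 CPM in controls (2.14-fold, adjusted p = 0.0149). Its call without a block stayed with only 1 of the stage 47 libraries left out. Its paired call (paired edgeR adjusted p = 0.00573) was lost without pair 1 (0.0867), pair 2 (0.051) or pair 3 (0.0954).

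Lysosomal genes leaned higher across the list, with 69 of 79 above 0 (median 0.19) and 23 with the groups apart, against 4.78% of all genes. In the paired test 3 were raised, against 0.51% of all genes. The alpha-galactosidase gla.S had 26.3, 29.8 and 25.6 CPM in thioridazine heads and 16.5, 20.7 and 16.9 CPM in controls (1.5-fold, paired edgeR adjusted p = 0.0125). The collagen-degrading cathepsin ctsk.L had 71.9, 62.6 and 76.1 CPM in thioridazine heads and 49.1, 45.8 and 54.2 CPM in controls (1.41-fold, paired 0.0234). The protease lgmn.L was 1.29-fold higher (paired 0.048). None of the 3 was called with any pair left out. The list summed to 6664, 6855 and 6464 CPM in thioridazine heads and 5979, 6194 and 5637 CPM in controls. Myeloid genes were above 0 in 56 of 64 (median 0.23, and 0.11 without thioridazine replicate 1), with 0 called by either test. Their median was 0.34, 0.079 and 0.076 in pairs 1, 2 and 3, so pair 1 was the highest. They summed to 1482, 1369 and 1316 CPM in thioridazine heads and 1201, 1250 and 1117 CPM in controls. The myeloid gene with the smallest p, havcr1.L, had 47.8, 46.7 and 45.9 CPM in thioridazine heads and 33.9, 34.5 and 35.9 CPM in controls (adjusted p = 0.4, paired 0.0717).

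The paired test lowered 33 genes, 19 of them named. The trefoil peptide gene tff3.2.S, secreted with mucus, had 7.56, 6.80 and 12.5 CPM in thioridazine heads and 16.3, 17.4 and 31.8 CPM in controls (log2 fold change -1.29, SE 0.29, edgeR adjusted p = 0.308, paired 4.29e-05). The annexin gene anxa10.L, a gene of the stomach lining in mammals, had 0.540, 0.840 and 0.932 CPM in thioridazine heads and 1.5, 4.25 and 7.98 CPM in controls (paired 0.000564, and 0.064 without pair 3). Its copy anxa10.S was at 0, 0.084 and 0 CPM in thioridazine heads and 0.333, 0.472 and 2.38 CPM in controls (paired 0.0112). The stomach proton pump gene atp4b.L had 0.0675, 0.168 and 0.0848 CPM in thioridazine heads and 0.0831, 0.236 and 18.1 CPM in controls, where replicate 3 alone was high (paired 0.0449, and 0.98 without pair 3). That control is the library with 215 CPM of pancreas markers, and its gut list summed to 184.9 CPM, against 57.78 and 75.47 CPM in the other controls and 53.26, 22.42 and 32.04 CPM in thioridazine heads. For anxa10 and tff3.2.S it was also the highest library.

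The anterior gradient gene ag1.S, first known from the cement gland of Xenopus embryos, had 1510, 1880 and 1610 CPM in thioridazine heads and 2240, 2390 and 2250 CPM in controls (log2 fold change -0.46, SE 0.13, paired edgeR adjusted p = 0.0106). Its relative agr2.L, of mucus-secreting cells, had 572, 637 and 707 CPM in thioridazine heads and 878, 859 and 745 CPM in controls and passed neither test (paired 0.11). The fatty acid activating enzyme acsl1.S had 40.9, 50.6 and 45.2 CPM in thioridazine heads and 69.5, 60.4 and 63.4 CPM in controls (log2 fold change -0.50, paired 0.0119). The carnitine transferase cpt1b.L, which takes fatty acids into muscle mitochondria, had 20.5, 32.2 and 25.3 CPM in thioridazine heads and 35.2, 35.7 and 35.8 CPM in controls (paired 0.0423). The calcium-binding gene s100z.S and the sulfotransferase gal3st4.2.L were lowered too (log2 fold changes -0.58 and -0.50).

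Liver genes had the lowest median of any list, -1.12, with 86 of 99 tested genes below 0 (the median was -0.69 without thioridazine replicate 2) and 46 with the groups apart. The groups did not overlap that way in 4.82% of all genes. The paired test lowered 2 of them, against 0.122% of all genes, and neither was called with any pair left out. Arginase (arg1.L), of the urea cycle, had 26.1, 18.3 and 19.9 CPM in thioridazine heads and 34.3, 25.9 and 30.4 CPM in controls (paired edgeR adjusted p = 0.0255). Ceruloplasmin (cp.L), a plasma copper carrier, had 0.810, 0.420 and 1.19 CPM in thioridazine heads and 2.08, 1.95 and 4.11 CPM in controls (paired 0.0471). Over pairs 1, 2 and 3 the median of the list was -0.15, -2.87 and -1.06. The lowest of these belongs to the pair with thioridazine replicate 2, where fga.S was near 0. Liver is not a tissue of the head, and its summed level of 4058, 1992 and 3602 CPM in thioridazine heads and 4173, 5724 and 5837 CPM in controls varied within the thioridazine group by about as much as between the groups. The complement gene c3.L, made in liver and by myeloid and epithelial cells, had the smallest p of the lower genes in the test without a block. It had 17.1, 14.8 and 16.2 CPM in thioridazine heads and 25.1, 36.9 and 47.2 CPM in controls (0.439 of the control level, edgeR adjusted p = 0.108, paired 0.145), and did not pass.

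The lists of cartilage, arch patterning, fibrous matrix and metalloproteinases held no called gene in either test. The bone list held 1, ctsk.L, raised in the paired test, against 0.51% of all genes. Of 60 cartilage genes 39 lay above 0, with a median of 0.041 and sums of 4578, 3856 and 4411 CPM in thioridazine heads and 4533, 3514 and 4785 CPM in controls. The chief cartilage collagen col2a1.L had 552, 518 and 674 CPM in thioridazine heads and 701, 438 and 736 CPM in controls. The cartilage gene with the smallest p, the sulfate donor enzyme papss2.L, had 17.3, 16.5 and 11.6 CPM in thioridazine heads and 10.8, 11.6 and 11.4 CPM in controls (adjusted p = 1.0, paired 0.244). Of 120 genes of arch patterning and facial mesenchyme, 74 lay above 0 (median 0.058), and the smallest p was that of the mesenchymal factor foxf1.L, at 7.97, 7.39 and 6.87 CPM in thioridazine heads and 10.9, 9.33 and 10.2 CPM in controls (paired 0.16). Fibrous matrix genes (43 of 80 above 0, median 0.0096) and metalloproteinases (19 of 24 above 0, median 0.15) had no call.

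The remaining lists had 0 called genes in either test, apart from gut and bone. Skeletal muscle genes (26 of 99 above 0, median -0.13), neurons and synapses (34 of 124, median -0.14), heart muscle (10 of 51, median -0.13), red blood cells (7 of 45, median -0.18) and the respiratory chain (16 of 120, median -0.065) leaned below 0. The respiratory chain median was -0.294, 0.0522 and 0.0523 in pairs 1, 2 and 3, and -0.00192 without control replicate 1. In pair 2 the medians of skeletal muscle (0.117) and heart muscle (0.045) were above 0. Those of neurons and red blood cells were below 0 in each pair. In neurons the sum was 6484, 7500 and 7771 CPM in thioridazine heads and 7378, 7403 and 8002 CPM in controls. Ionocyte genes lay above 0 in 3 of 20 (median -0.085), hair cell, olfactory and lateral line genes in 13 of 35 (median -0.052), goblet cell genes in 6 of 14 (median -0.053, but 0.09 without thioridazine replicate 3) and pancreas genes in 3 of 11 (median -0.15, but 0.20 without control replicate 3). Of the gut genes 2 of 14 lay above 0, with a median of -0.80, the lowest after liver. The paired test lowered 1 of them, atp4b.L, against 0.122% of all genes. Over pairs 1, 2 and 3 the gut median was 0.018, -0.45 and -1.61, and it was -0.37 without control replicate 3 and -1.72 without thioridazine replicate 1. On the other side were bone (25 of 30, median 0.14), signalling ligands (59 of 93, median 0.081), motile cilia (47 of 66, median 0.065) and interferon and complement genes (36 of 58, median 0.088). The medians of the cholesterol, xenobiotic, circadian and glycolysis lists were 0.043, 0.043, 0.017 and -0.032. The list for DNA replication and mitosis was level, with 68 of 128 above 0 and a median of 0.011. Immediate early genes lay above 0 in 49 of 62 (median 0.14), and pair 2 stood apart with a median of 0.42, against 0.051 and -0.05 in pairs 1 and 3.

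The homeologs gave a comparison of related genes. Over 6985 tested pairs of .L and .S copies, the log2 fold changes correlated with r = 0.551 and had the same sign in 64.1%. Genes are not independent replicates, and copies may share reads. Of the 50 raised genes of the paired test with a tested homeolog, the other copy was above 0 in 47 and raised itself in 20. Among the copies not raised were slc44a4.L (paired edgeR adjusted p = 0.81), il13ra2.S (0.991), fcn1.S (0.951), atoh7.L (0.78), cish.L (0.375) and guca1a.L (0.622). Of the 10 lowered genes with one, the other copy was below 0 in 10 and lowered in 2. Where both copies were called, the pair was counted once for each copy, so the 2 lowered are anxa10.L and anxa10.S. Over all genes the paired test raised 0.51% and lowered 0.122%.

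The last comparison asked which effects at stage 47 differ from those of the same exposure at stage 45. The pigment genes did not pass that test, grk7.L and both elf3 copies did, and so did several lens crystallins. Without a block edgeR called 0 genes, with 575 at an unadjusted p under 0.05, and DESeq2 called 4. With the replicate block within each stage, 25 genes had a higher effect at stage 47 (0.0924%) and 2 a lower one (0.00739%). Of the 27, 10 were raised at stage 47 in the paired test and 15 were lowered at stage 45 in the paired test. Of the 20 genes called at stage 47, 18 were above 0 at stage 45 too, 9 were called there in the paired test, and 5 had a difference that passed.

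Among the 5 were elf3.S and elf3.L. At stage 45, elf3.S had 63.8, 75.2 and 74.5 CPM in thioridazine heads and 54.4, 57.0 and 63.1 CPM in controls, so the control level was alike at both stages and the thioridazine level was higher at stage 47 (difference 0.70 on the log2 scale, paired edgeR adjusted p = 0.0318). For elf3.L the difference was 0.78 (0.046). The log2 fold change of grk7.L was 1.14 at stage 47 and 0.46 at stage 45 (difference 0.69, paired 0.034). Its stage 45 levels were 48.9, 44.8 and 41.9 CPM in thioridazine heads and 37.6, 29.4 and 31.9 CPM in controls. Unlike elf3.S, grk7.L thus had a thioridazine level alike at both stages and a control level that was lower at stage 47. For guca1a.S and opnpl.L, the log2 fold changes were 0.94 and 0.69 at stage 47 and -0.15 and -0.18 at stage 45 (paired 0.0224 and 0.0173). The collectin sftpa1.L had a log2 fold change of 0.82 at stage 47 and 0.065 at stage 45 (paired 0.021). For ednrb2.S, dct.L, tyrp1.L and pmel.L the effect at stage 45 was 0.82, 0.94, 0.78 and 0.74, and the test of the difference gave paired adjusted p-values of 0.881 to 0.994. Likewise prl.2.S had a log2 fold change of 1.18 at stage 47 and 1.17 at stage 45 (paired 0.999). A p that misses the threshold does not show equal effects.

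Gamma crystallin genes made up 11 of the 27 and had a stage 47 effect near 0 and a lower level in thioridazine heads at stage 45. The gene crygdl.16.S had 375, 365 and 308 CPM in thioridazine heads and 382, 261 and 247 CPM in controls at stage 47. At stage 45 it had 248, 257 and 208 CPM in thioridazine heads and 391, 472 and 282 CPM in controls (paired edgeR adjusted p of the difference 0.0173). Reads may be shared between crystallin copies, so the level of a single copy is uncertain. The 2 genes with a lower effect at stage 47 were elapor1.L and crisp1.3.S. For elapor1.L thioridazine heads had 9.99, 15.3 and 12.1 CPM and controls 13.3, 15.7 and 14.9 CPM at stage 47, and thioridazine heads 16.2, 24.6 and 25.4 CPM and controls 10.8, 14.9 and 15.1 CPM at stage 45 (paired 0.0224).

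**Figure D5:**
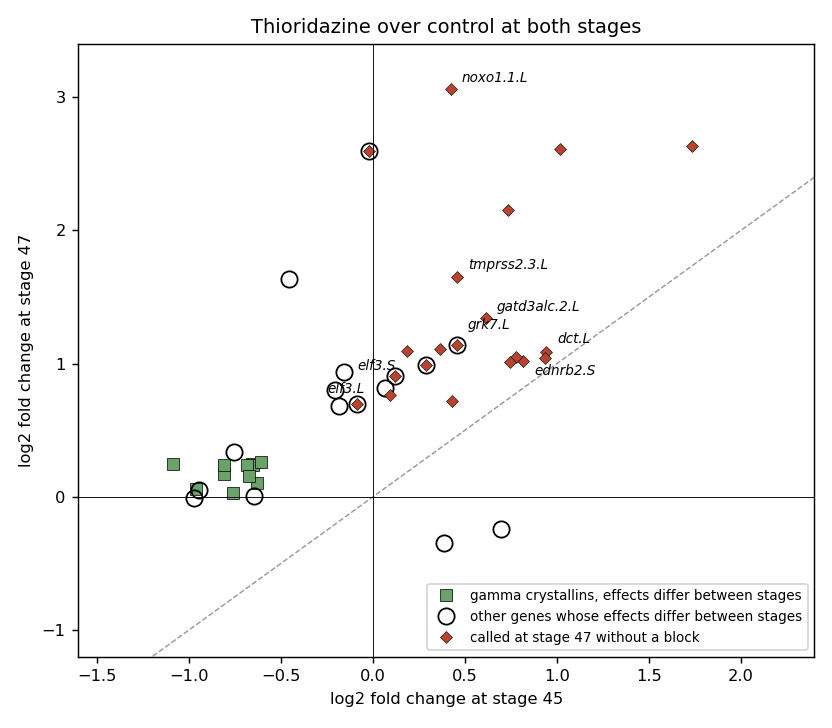
Log2 fold change of thioridazine over control heads at stage 47 against that at stage 45. Diamonds are the 20 genes called at stage 47, squares and open circles the 27 genes whose effects differed between the stages in the paired test, and the dashed line marks equal effects. The gamma crystallins lie at 0.032 to 0.26 at stage 47 and below 0 at stage 45.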

How the data were processed

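RNA sequencing (TruSeq v2 kit, which keeps no strand, single-end reads of 100 bp on a HiSeq 2500, per the labels' protocols) was deposited as raw counts per gene, 1 file a library, with 37018 numeric gene identifiers. Trimmomatic, HISAT2, HTSeq and DESeq2 were used per the submitters' processing notes, with versions, genome build, annotation and the handling of multiply mapped reads not given in the sources used here. Windows line ends in 3 files were removed. Names came from a RefSeq table of Xenopus_laevis_v10.1 (33597 identifiers matched, 3421 not, 10508 symbols a database number only), used for names and gene order alone. Counts of all 12 libraries were fitted in R 4.3.3 with edgeR 4.0.16 (TMM, filterByExpr, robust quasi-likelihood), 1 coefficient for each of the 4 groups, 8 residual degrees of freedom and Benjamini-Hochberg adjustment over 27050 genes, which held at least 99.75% of the counts. The paired test adds the replicate number as a block within each stage (4 residual degrees of freedom). The labels state no pairs. The numbers were taken to pair libraries because all 3 correlations of same-numbered deviations were over 0.1, a cut taken without a test. Thioridazine replicate 1 with control replicate 2 gave 0.0951, and thioridazine replicate 2 with control replicate 1 gave 0.0173, so pairs 1 and 2 were weakly told apart. Both tests were run on simulated counts drawn with no pair effect. Members and gene lists were chosen with earlier results of these data known. Lists match symbols without .L or .S.

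Named genes are those called without a block, up to 12 further genes a direction from the paired test with at least 1 CPM and groups apart, homeologs, up to 3 genes of each list, and the leading genes of the difference between stages. Others named from the paired test, the marker genes rho.L, col2a1.L and fga.S, and the run of neighbouring genes were chosen after their values were seen. Log2 fold changes and SE are from the test without a block. Alternatives were RLE and upper-quartile scaling, other filters, DESeq2 1.42.0, other blocks, summed homeologs, stage 47 alone and each library left out. Leaving out a stage 47 pair was added after the data were seen. Results of some single genes under these rules are not reported here, though counts include them.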

Additional observations from a re-analysis of the deposited data

Results flagged for a closer look

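Of the 86 genes chosen by the naming rules, 3 had all 3 thioridazine libraries below all 3 controls at stage 47 and above all 3 at stage 45. The same held for 18 of all 27050 genes tested (0.0665%). The naming rules took in genes with a small p for the difference between stages, c3.L and aldh3a2.L among them, so these counts cannot be compared. The complement gene c3.L had a log2 fold change at stage 47 minus that at stage 45 of -1.92, with 17.1, 14.8 and 16.2 CPM in thioridazine heads and 25.1, 36.9 and 47.2 CPM in controls at stage 47, and 13.6, 13.4 and 8.61 CPM in thioridazine heads and 5.46, 8.49 and 7.40 CPM in controls at stage 45. The multiciliated cell regulator mcidas.S had a difference of -0.954 and the aldehyde dehydrogenase aldh3a2.L one of -0.515. In edgeR none of the 3 differences passed, with adjusted p-values in the paired test of 0.315 for c3.L, 0.465 for mcidas.S and 0.263 for aldh3a2.L.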

How the results depend on the processing

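The call of 20 genes was 18 to 20 under RLE or upper-quartile scaling, other filters and summed homeologs. DESeq2 called 68, the replicate block over all 12 libraries 51, the replicate block within each stage 171, stage 47 libraries alone 27, and those with the replicate block 205. With a single library left out the count ran from 0 (without control replicate 1 of stage 47) to 24. The difference between stages had 4 calls in DESeq2 and 27 with the replicate block within each stage. Without a block it had 0 calls with all libraries and 0 with any library left out. For the 27, no count with libraries left out is given. Without a pair of stage 47 libraries the paired test called 139, 100 and 81 genes (pairs 1, 2 and 3). Of these 84, 72 and 73 were raised and 55, 28 and 8 lowered, so the number of lowered genes depended on the pair left out. Of the 20 genes, 16 were called with stage 47 libraries alone. With a single library left out, signs turned for prss2.L (log2 fold change -2.4 to 0.28, the highest without control replicate 3 of stage 47), crygbl.5.S (-0.059 to 0.248, the lowest without control replicate 2 of stage 47) and crygbl.2.S (-0.058 to 0.184, below 0 without that control or without thioridazine replicate 2 of stage 47). The cause was not tested. None of these was called. Medians of 13 of the 39 lists turned sign with a stage 47 library left out, among them pancreas (-0.301 to 0.202), goblet cells (-0.123 to 0.0901), epithelium (-0.0616 to 0.0677), cartilage (-0.0375 to 0.146) and arch patterning (-0.00867 to 0.107). Depth limits genes under 1 CPM, such as lep.L and anxa10.S.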
